A study of Tupaia belangeri with 6 samples.

Results

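Endothelial nuclei of the tree shrew (TS) hippocampus were examined by single-nucleus RNA sequencing (snRNA-seq) in 3 control TSs and 3 TSs with Alzheimer's-like pathology (ALP), with 1 library per animal. All animals were naturally aged, had no genotype or treatment named for them, and were put into the control or the ALP group by the time they needed in a pipeline maze, so that the label rests on behaviour and not on the vessels. The brains had been perfused with saline, and nuclei were released from frozen hippocampus for 10× Genomics 3′ libraries, in which each unique molecular identifier (UMI) counts 1 captured RNA molecule. Nuclei and not whole cells were captured, so cytoplasmic RNA is poorly covered. A nucleus was taken as endothelial where it had at least 200 detected genes, at least 3 UMIs summed over PECAM1, ICAM2, FLT1 and CLDN5, and 0 UMIs of PTPRC, MOG, PDGFRA, AQP4, GAD1 and NEUROD6, markers of leukocytes, oligodendrocytes, their precursors, astrocytes, inhibitory neurons and excitatory neurons. This rule found 314 of 37603 nuclei (0.835%), of which 235 came from the 19765 control nuclei and 79 from the 17838 ALP nuclei.

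Endothelial cells line the blood vessels, and in the brain they form the blood-brain barrier: tight junctions close the gaps between neighbouring cells, while carriers such as the glucose transporter SLC2A1 pass nutrients and efflux pumps return foreign compounds to the blood. VEGF, Notch, Wnt and TGF-β/BMP signals shape the vessels and keep the barrier, and pericytes and smooth muscle cells, together called mural cells, sit on the outer face of the endothelium and share its basement membrane. Brain endothelium also takes part in immune defence through adhesion molecules and antigen presentation.

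Control 1, 2 and 3 held 151, 27 and 57 endothelial nuclei with 464114, 159632 and 264143 UMIs in sum. ALP 1, 2 and 3 held 20, 36 and 23 endothelial nuclei with 57026, 111173 and 50684 UMIs. Control 1 therefore gave the largest sum and ALP 3 the smallest. Single deep nuclei weighed heavily in the small libraries, since the 5 deepest endothelial nuclei held 13.6% of these UMIs in Control 1, 51.2% in Control 2, 38.6% in Control 3, 67.2% in ALP 1, 48.0% in ALP 2 and 69.4% in ALP 3. Of the 166 barcodes that occurred in more than 1 library, 1 belonged to an endothelial nucleus.

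The 4 markers that chose the nuclei did not contribute alike. CLDN5, the main sealing protein of the brain's endothelial tight junctions, had a UMI in 262 of the 314 nuclei (83.4%) and FLT1, a VEGF receptor, in 273 (86.9%), whereas ICAM2, an adhesion molecule, had one in 75 (23.9%) and PECAM1, the classical marker CD31, in 35 (11.1%). At least 2 different markers were seen in 260 nuclei, and 54 nuclei reached the rule with 1 marker, 21 of them with FLT1 alone. The median sum was 7 marker UMIs and the highest 99.

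The label was set beside 18 endothelial identity genes that the rule did not use, such as the transcription factors ERG and MECOM and the receptors TEK and ADGRF5. The list was chosen with earlier results of these data known, so it is no independent check. Against nuclei with 0 marker UMIs, 15 of the 18 genes were higher in 6 of 6 libraries. SHANK3 was 0.858 times as high by the median ratio, and ESAM had 0 UMIs. In nuclei without an excluding marker these genes made up 6.76 UMIs per 10000 at 1 marker UMI and 8.77 at 2 marker UMIs, just outside the threshold (258 nuclei), against 16.7 at 3 marker UMIs, just inside (61 nuclei), 32.9 at 4, 54.4 at 5 to 9 and 92.8 at 10 or more (117 nuclei). Nuclei with 0 marker UMIs, which were not filtered on the excluding markers, had 6.19. The list of excitatory neuron genes, led by SYT1, stood at 31.2 UMIs per 10000 at 0 marker UMIs, 37.5 at 1, 40.4 at 2 and 41.8 at 3. It then fell to 32.8 at 4, 23.9 at 5 to 9 and 8.17 at 10 or more. The nuclei at 3 marker UMIs thus carried neuronal RNA near the level of those at 2 and above those at 0 or 1, as the plot of the lists against marker UMIs shows.

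**Figure D1:**
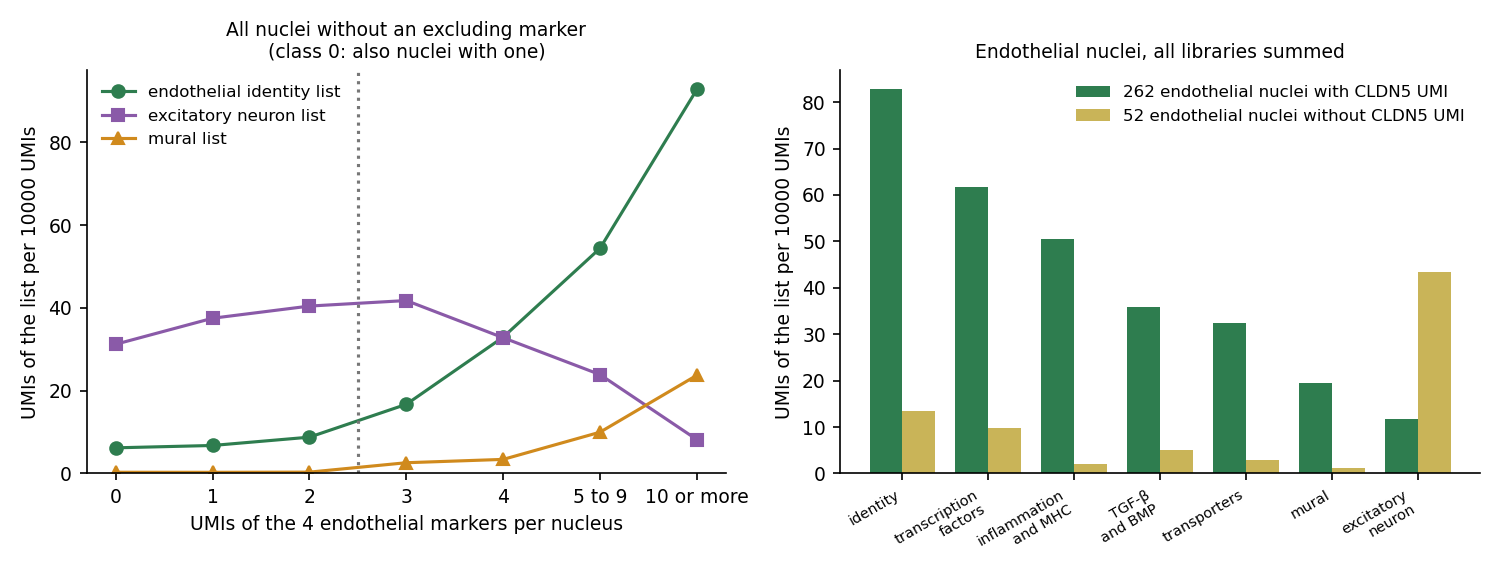
Left, summed UMIs of 3 gene lists per 10000 UMIs (y axis) in nuclei grouped by the UMIs of the 4 endothelial markers (x axis). The dotted line is the threshold of the rule. Nuclei with an excluding marker are left out except at 0 marker UMIs. Endothelial identity genes run from 6.19 at 0 marker UMIs to 92.8 at 10 or more. Right, UMIs of 7 lists per 10000 UMIs in the endothelial nuclei with and without a CLDN5 UMI, summed over the 6 libraries, where the identity list stands at 82.7 and 13.4.

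CLDN5 split the chosen nuclei sharply. The 262 nuclei with a CLDN5 UMI had a median of 1584.5 UMIs, 82.7 identity UMIs per 10000 and 11.7 excitatory neuron UMIs per 10000. The 52 nuclei without one had a median of 6805 UMIs, 13.4 identity UMIs and 43.4 excitatory neuron UMIs per 10000, and they held 37.5% of all UMIs of the endothelial nuclei. Within libraries the nuclei without CLDN5 had fewer identity UMIs per 10000 (7.35 to 25.7 against 64.4 to 107.7) and more excitatory neuron UMIs in 6 of 6. They were deeper in 4 of 6 libraries, but not in Control 1 (median 1878 against 2072 UMIs) and ALP 3 (797 against 858 UMIs). The label is thus less sure for these 52 nuclei in sum, and they were kept because the rule keeps them. The share of nuclei with CLDN5 was 93.4%, 59.3% and 75.4% in Control 1, 2 and 3 and 75%, 86.1% and 69.6% in ALP 1, 2 and 3. Control 2 stood apart, since its 11 nuclei without CLDN5 carried 81.9% of its endothelial UMIs, against 9.13% for the 10 such nuclei in Control 1. The test across genes between ALP and control TSs was therefore also made with the CLDN5 nuclei alone and without Control 2.

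Levels are given as CPM, the UMIs of a gene per 1000000 UMIs of the endothelial nuclei of a library, set beside the same value in the nuclei of that library with 0 endothelial marker UMIs. Because the nuclei were chosen by genes measured in the same nuclei, these differences are a description without a test. Of the features with at least 50 UMIs in endothelial nuclei, 20.3% lay above the other nuclei in 6 of 6 libraries and 9.49% below in 6 of 6. The counts of list genes given below stand beside these shares, although the lists also hold genes with fewer UMIs.

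LY6Hli1, a symbol of the annotation whose suffix the sources used here do not explain, led the genes ranked by the median log2 ratio to other nuclei with 10 CPM added to both levels (7.70), while by the plain ratios printed below ERG, MECOM and NOSTRIN stood above it. It stood at 14156, 1998 and 5100 CPM in Control 1, 2 and 3 and at 7348, 5937 and 5150 CPM in ALP 1, 2 and 3. The other nuclei had a median of 11.9 CPM over the libraries, and the median ratio was 354. MECOM, a zinc finger transcription factor of endothelium, stood at 1170, 144 and 485 CPM in the control and 684, 1241 and 355 CPM in the ALP libraries, against a median of 1.97 CPM in other nuclei and with a median ratio of 406. ERG, the ETS factor that maintains endothelial identity, stood at 780, 200.5 and 424 CPM in the control and 386, 594 and 671 CPM in the ALP libraries, against 0.859 CPM and with a median ratio of 547. In each of these genes Control 2 had the lowest value.

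The antigen presentation genes B2M, the light chain of MHC class I, and 1A01li1, named as a class I heavy chain, were among the 20 most enriched genes. B2M stood at 2963, 1096 and 2287 CPM in the control libraries and at 3016, 2932 and 1440 CPM in the ALP libraries, 58.6 times the level of other nuclei by the median ratio. The interferon-induced GTPase GBP5 was 50.9 times, the BMP targets ID1 and ID3 124 and 85.5 times, the calcitonin receptor partner RAMP2 78.1 times and the endothelial factor SOX18 109 times as high as in other nuclei. NOSTRIN, a regulator of endothelial nitric oxide synthase, was 405 times and the lipase PLA1A 299.5 times as high. TFF3, MAL, MT1, DEPP1, ADGRF5, RGS5, HIGD1B and EBF1 completed the 20 genes. Each was higher than in other nuclei in 6 of 6 libraries, which was a condition of the choice. The number of paralogs behind the copy names LY6Hli1 and 1A01li1 is not known here, so their counts are uncertain where reads were shared between copies.

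**Figure D2:**
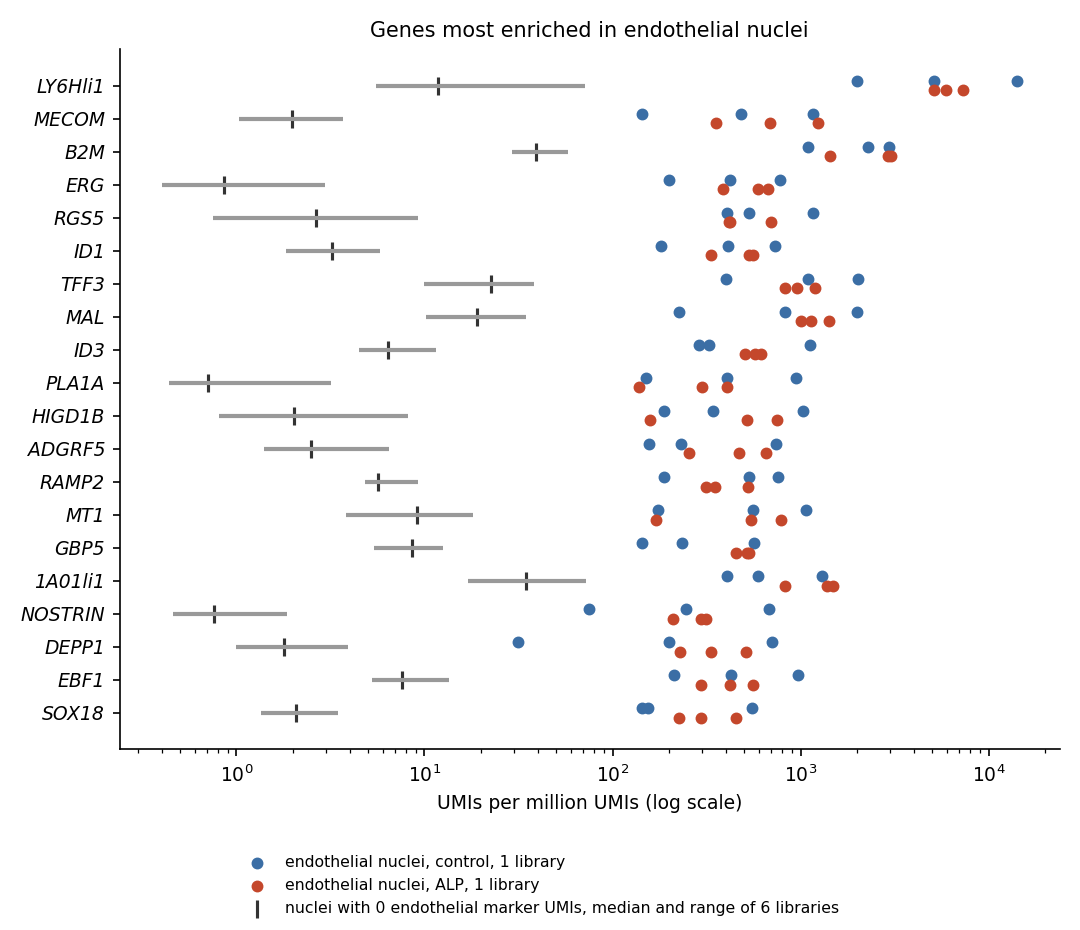
CPM on a log axis for the 20 genes most enriched in endothelial nuclei, 1 point per library, with the median (tick) and range (grey line) of the 6 libraries in nuclei with 0 endothelial marker UMIs. The points of the control and ALP libraries are interleaved and all lie to the right of the grey lines, the genes having been chosen as higher in every library.

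Free RNA adds UMIs to every droplet, so shares of nuclei with a UMI were set beside the 8001 nuclei with a MOG UMI and 0 endothelial marker UMIs, oligodendrocyte nuclei that should lack endothelial RNA. The median depth was 1863 UMIs in endothelial and 1623 UMIs in these nuclei. MECOM had a UMI in 65.0% of endothelial and 0.450% of MOG nuclei, ERG in 62.4% and 0.275%, and KLF2, a factor induced by blood flow, in 46.5% and 0.225%. After thinning of each nucleus to 500 UMIs, which all 314 endothelial nuclei reached, these shares were 39.4% and 0.0971%, 33.1% and 0.0550%, and 19.7% and 0.0753%. The shares of SYT1, the vesicle protein of neurons, lay near each other, with 39.2% and 36.3% before and 22.3% and 19.4% after thinning.

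Junction and transport genes of the barrier were each seen in part. Of all features with at least 50 UMIs, 20.3% lay above other nuclei in 6 of 6 libraries, and the tight junction count lay near that share. Of 13 tight junction genes in the files beside CLDN5, 10 had a UMI in endothelial nuclei and 3 (CGN, ESAM, LSR) had none, and 3 lay above other nuclei in 6 of 6 libraries. TJP1, a scaffold of the junction, stood at 205, 144 and 174 CPM in the control and 228, 189 and 118 CPM in the ALP libraries, 1.91 times other nuclei, and CGNL1, paracingulin, at 187, 50.1 and 83.3 CPM and 35.1, 126 and 59.2 CPM, 21.1 times other nuclei. Of 21 transporter genes in the files, 15 had a UMI and 9 lay above other nuclei in 6 of 6 libraries. The organic anion carrier SLCO1A2 stood at 987, 113 and 280 CPM in the control and 579, 666 and 414 CPM in the ALP libraries, 30.6 times other nuclei. SLC2A1 stood at 935, 107 and 288 CPM and at 649, 315 and 237 CPM, 50.6 times other nuclei, and the amino acid carrier pair SLC7A5 and SLC3A2 was 18.5 and 8.26 times as high.

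Several genes that mark brain endothelium in other mammals were at 0. ESAM, the efflux pump ABCG2 and the lipid carrier MFSD2A had 0 UMIs in all 314 nuclei, which allows a share of up to 0.955% of nuclei with a UMI and a level of up to 2.71 CPM for each in this count table, counting error only. These limits hold for the counted features and not for the transcripts, since HSPA8 and HSP90AA1, chaperones that every cell uses, were listed at 0 in endothelial and in all other nuclei. Of the 42 listed genes at 0 in endothelial nuclei, 20 were also at 0 in all nuclei with 0 endothelial marker UMIs, SELE among them. ESAM, ABCG2 and MFSD2A had median levels of 0.0398, 0.236 and 0.0950 CPM in the other nuclei, so at this depth none of them was detected above those nuclei. ABCG2 had a UMI in 0.112% and MFSD2A in 0.0250% of the MOG nuclei. PLVAP, of fenestrated vessels, and the activation selectins SELE and SELP were also at 0. The symbols OCLN, ABCB1, ACKR1, CAV1 and 12 others of the 288 listed genes, SOCS3 and CCL2 among them, were not found under these names and were not analysed here. ABCB4, a neighbour in sequence of ABCB1, stood at 1762, 288 and 625 CPM in the control and 947, 980.5 and 848 CPM in the ALP libraries, 25.1 times other nuclei, and reads of such close relatives may have been counted together.

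Genes of transcription and signalling were described in the same way, beside the 20.3% of all features with at least 50 UMIs. The counts of the Wnt and VEGF lists lay near that share. Of 22 endothelial transcription factors 21 were detected and 11 lay above other nuclei in 6 of 6 libraries. SOX17, an arterial factor, was 333 times, FOXF2, a factor of brain vessels, 268 times and EPAS1, a hypoxia-inducible factor, 17.6 times as high as in other nuclei, while MEF2C, which neurons also use, was 1.249 times as high. In the TGF-β and BMP list 7 of 14 genes lay above in 6 of 6 libraries, among them the coreceptor ENG, 149 times as high. In the Wnt and barrier list 4 of 17 did, with LEF1, a nuclear effector of Wnt, 159 times and the Wnt inhibitor APCDD1 10.6 times as high. The VEGF and angiopoietin list gave 3 of 12, TEK, the angiopoietin receptor, 56.8 times, KDR, the main VEGF receptor, 22.3 times and ANGPT2, a ligand of TEK, 7.08 times as high. In the Notch list 4 of 9 did, with NOTCH4 16.9 times as high. The inflammation list gave 4 of 14, B2M, CXCL12 (48.8 times), NFKBIA (13.6 times) and VCAM1 (20.8 times), with ICAM1 at 5 UMIs in all 314 nuclei. Among basement membrane genes 6 of 15 did, with SPARCL1, the highest in CPM, 5.88 times, SPARC 7.23 times and HSPG2 11.7 times as high. The collagen IV chains COL4A1 and COL4A2 were 1.87 and 1.78 times as high and not above in every library.

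RNA of mural cells moved with these nuclei. Of 11 mural genes in the files, 8 had a UMI and 4 lay above other nuclei in 6 of 6 libraries, their sum being 22.9 to 57.6 times that of other nuclei, while ACTA2, MYH11 and ANPEP were listed at 0 in endothelial and in mural nuclei alike, ACTA2 and ANPEP also in all other nuclei, so that these genes show nothing here. RGS5, a pericyte regulator of G-protein signals, stood at 1166, 407 and 534 CPM in the control and 421, 693 and 414 CPM in the ALP libraries. A UMI of PDGFRB, NOTCH3, RGS5 or ABCC9 was found in 169 endothelial nuclei, and these had 84.5 identity UMIs per 10000 against 31.5 in the 145 nuclei without one, and 8.81 excitatory neuron UMIs against 37.0. HIGD1B stood at 1314 CPM and in 67.5% of nuclei with a mural UMI, and at 19.0 CPM and in 5.52% of nuclei without. In the 54 nuclei with at least 3 UMIs of the 4 mural genes and 0 endothelial marker and excluding UMIs, RGS5 stood at 974, EBF1 at 912 and HIGD1B at 490 CPM, MECOM at 34.0 and SOX18 at 0 CPM. The neuronal genes SYT1 and SNAP25 stood at 1879 and 368 CPM in these 54 nuclei. They stood at 2333 and 432 CPM in the nuclei with 0 endothelial marker UMIs, so the mural nuclei carried much neuronal RNA too. Whether nuclei with both kinds of RNA were joined in a droplet was not tested, and no doublet caller was run. The other cell types were near or below the level of other nuclei. The rule put out nuclei with a UMI of 6 markers of such cell types, while the other nuclei were not filtered on them. Low ratios were therefore favoured by the choice and are no independent measure of purity. The summed lists stood at a median of 0.711 times for microglia, 0.200 times for oligodendrocytes, 0.605 times for astrocytes, 0.259 times for oligodendrocyte precursors and 0.909 times for excitatory neurons, while fibroblast genes, led by DCN, were 19.4 times as high at 75.2 to 189.6 CPM in sum. Genes of perivascular macrophages and T cells stood at 12.5 to 27.0 CPM in sum, of ependyma and choroid plexus at 0 to 109.9 CPM and the red cell gene ALAS2 at 0 to 15.1 CPM. Inhibitory neuron genes, with GAD2 at 0 in all these nuclei and the others, stood at 69.0, 62.6 and 45.4 CPM in the control and 35.1, 44.97 and 19.7 CPM in the ALP libraries, apart by less than 1 CPM, and overlapped in CLDN5 nuclei (exact permutation p = 0.3). In CLDN5 nuclei the oligodendrocyte list stood at 171, 34.6 and 157 CPM in the control and 231, 251 and 381 CPM in the ALP libraries. The groups did not overlap there (exact permutation p = 0.1). The oligodendrocyte genes MBP, MAG and MOBP were at 0, but they also stood at medians of only 0.09996, 0.784 and 0 CPM in the other nuclei, so these 0s show nothing here.

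Arterial and venous genes were seen in part of the nuclei. After thinning to 1000 UMIs, which left out shallower nuclei and kept 123, 23 and 51 nuclei of Control 1, 2 and 3 and 12, 21 and 8 nuclei of ALP 1, 2 and 3, a UMI of the arterial list was expected in 68.3% ± 11.2 (SD, n = 3) of control and 73.1% ± 5.41 (SD, n = 3) of ALP nuclei (exact permutation p = 0.5). For the venous list it was 24.1% ± 5.25 and 29.9% ± 9.80 (SD, n = 3 each, exact permutation p = 0.5). The groups overlapped in both, with 75.0%, 55.4% and 74.5% arterial in the controls, against 76.5%, 76.0% and 66.9% with ALP. ARL15 gave most UMIs of the arterial list and was 1.69 times as high as in other nuclei, and without ARL15 and the venous TSHZ2 the arterial shares were 31.9% ± 12.5 and 41.4% ± 12.1 (SD, n = 3 each, exact permutation p = 0.5). GJA4, the gap junction protein of arterial endothelium, stood at 84.0, 18.8 and 18.9 CPM in the control and 52.6, 135 and 98.7 CPM in the ALP libraries, and VWF, the clotting factor high in veins, at 94.8, 12.5 and 41.6 CPM and 87.7, 36.0 and 98.7 CPM. Of the capillary list, CA4 was 3.78 times and TFRC, the transferrin receptor, 11.3 times as high as in other nuclei.

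The study asks how the cells of the hippocampus differ between ALP and control TSs, and endothelial nuclei made up a smaller part of every ALP library as counted, although the groups overlapped once all nuclei were brought to the same depth. Their share of all nuclei was 1.72%, 0.897% and 0.715% in Control 1, 2 and 3, with 95% Wilson intervals of 1.47 to 2.01%, 0.617 to 1.30% and 0.553 to 0.926%. It was 0.393%, 0.503% and 0.411% in ALP 1, 2 and 3, with intervals of 0.255 to 0.606%, 0.364 to 0.696% and 0.274 to 0.616%, which cover counting error only. Every ALP library was thus below every control library, with means of 1.11% ± 0.535 and 0.436% ± 0.0593 (SD, n = 3 each), a 2.55-fold difference. The two-sided exact permutation p was 0.1, the smallest that 3 against 3 libraries allow, so the design cannot reach 0.05. Control 1 carried part of the difference of -0.675 percentage points, which was -0.370 without it.

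**Figure D3:**
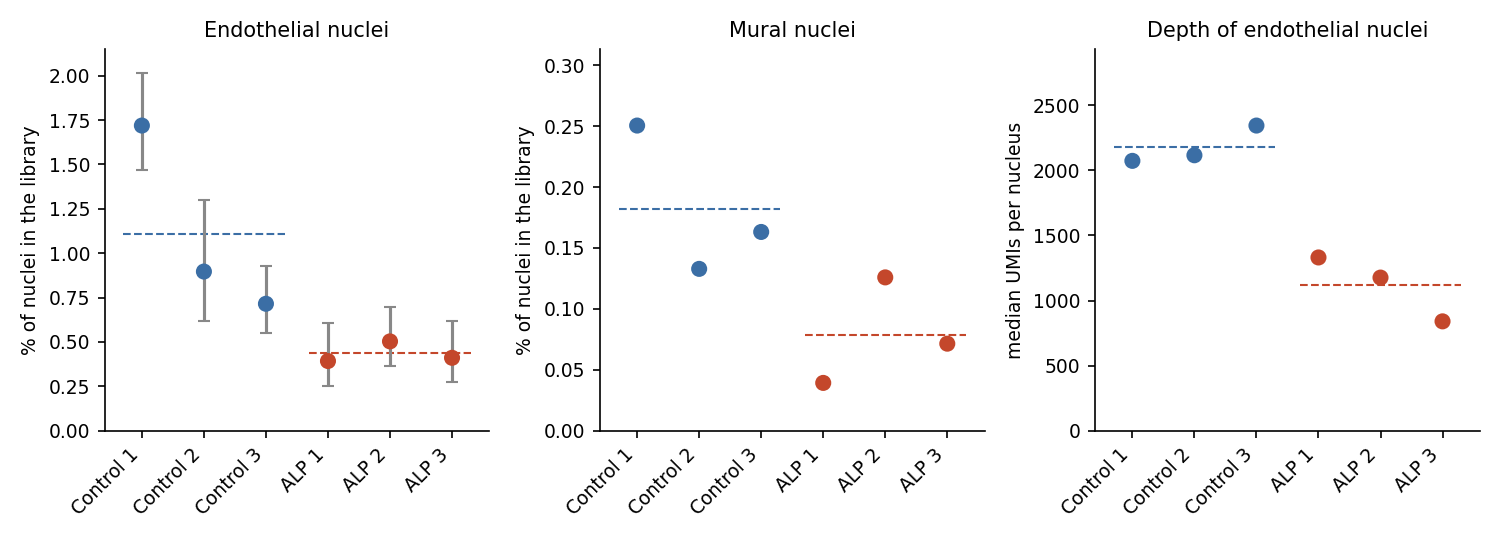
Share of endothelial nuclei (left, with 95% Wilson intervals as bars), share of mural nuclei (middle) and median UMIs per endothelial nucleus (right) in each library, with group means as dashed lines. In all 3 panels the ALP libraries lie below the control libraries.

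The groups stayed apart when the nuclei were chosen by other limits on genes, markers or marker UMIs, but not when depth was made equal without loss of nuclei. With a CLDN5 UMI required, the shares were 1.61%, 0.531% and 0.540% in the controls, against 0.295%, 0.434% and 0.286% with ALP, and with at least 5 marker UMIs the means were 0.728% and 0.267%. Without the excluding markers 241, 58 and 111 control and 41, 60 and 56 ALP nuclei qualified, with means of 2.02% and 0.882%. The share of nuclei with 3 marker UMIs that were put out for another marker was 46.5% ± 8.27 in control and 50.05% ± 9.52 in ALP libraries (SD, n = 3 each, exact permutation p = 0.6).

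Depth moved with the groups. The median was 2072, 2115 and 2343 UMIs per endothelial nucleus in Control 1, 2 and 3 and 1330.5, 1176 and 840 UMIs in ALP 1, 2 and 3. All 3 ALP medians lay below the control medians (2177 ± 146 against 1116 ± 251, SD, n = 3 each, exact permutation p = 0.1). Relative to the other nuclei of its library, the endothelial median was 0.994, 0.471 and 1.12 in the controls, against 0.639, 0.520 and 0.499 with ALP, and these ratios overlapped (exact permutation p = 0.4). Among CLDN5 nuclei the group means of the medians were 1641 and 935 UMIs, again without overlap. When every nucleus was thinned to 500 UMIs, which all nuclei of the 6 libraries reached, endothelial nuclei were expected to make up 1.08%, 0.440% and 0.299% in Control 1, 2 and 3 and 0.309%, 0.342% and 0.297% in ALP 1, 2 and 3. Control 3 then lay among the ALP libraries, and the means of 0.605% ± 0.413 and 0.316% ± 0.0232 (SD, n = 3 each, exact permutation p = 0.3) differed 1.91-fold. A lower share and a lower depth of endothelial nuclei in the ALP libraries cannot be told apart with these counts. Thinned to 1000 UMIs, with shallower nuclei left out, endothelial nuclei made up 1.47%, 0.613% and 0.537% in the controls, against 0.253%, 0.258% and 0.200% with ALP. The means were 0.873% ± 0.517 and 0.237% ± 0.0320 (SD, n = 3 each, exact permutation p = 0.1), a 3.68-fold difference. That limit itself selected on depth, since 28, 4 and 6 of the endothelial nuclei in Control 1, 2 and 3 but 8, 15 and 15 of the fewer ones in ALP 1, 2 and 3 fell below it.

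Mural nuclei were fewer in ALP libraries too. They made up 0.2504%, 0.133% and 0.163% in the controls, against 0.0393%, 0.126% and 0.0715% with ALP (0.182% ± 0.0611 against 0.0789% ± 0.0438, SD, n = 3 each, exact permutation p = 0.1), on 39 and 15 nuclei. The groups did not overlap, although Control 2 and ALP 2 lay close together, on 4 and 9 mural nuclei. The share of mural nuclei was not computed at equal depth, and these nuclei also carried neuronal RNA. There were 6.86, 6.75 and 4.38 endothelial nuclei per mural nucleus in the controls, against 10, 4 and 5.75 with ALP. These ratios overlapped and had means of 5.999 ± 1.40 and 6.58 ± 3.09 (SD, n = 3 each, exact permutation p = 0.9). The yield of vessels from the tissue cannot be told apart from the number of vessel cells with these libraries.

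For gene expression, UMIs were summed over the endothelial nuclei of each library and compared with edgeR's quasi-likelihood test. A gene was called at a Benjamini-Hochberg adjusted p under 0.05 and a log2 fold change beyond 0.25. Of 2583 genes tested, 0 were called in either direction (0% of those tested), and the smallest adjusted p of edgeR was 0.999. At an unadjusted p under 0.05 there were 44 genes (1.7%), 20 higher and 24 lower in ALP TSs, and DESeq2 called 0 genes with 31 at an unadjusted p under 0.05. The 3 ALP values lay above all control values in 74 genes (2.86%) and below them in 86 genes (3.33%). At this depth large changes could be missed. On simulated counts of the same size the test recovered 29% of 100 genes with a log2 change of 2. It recovered 1% of 100 genes with a log2 change of 1, with 0 false calls among the unchanged genes. With Control 1 left out, 281 genes had an unadjusted p under 0.05 and 0 were called, with a smallest adjusted p of 0.0615 in edgeR.

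Among the tested genes of the 16 endothelial gene groups, 0 were called and 0 had groups that did not overlap. In the endothelial identity list 0 of 12 tested genes were called and the median log2 fold change was 0.07, beside -0.07 over all tested genes. The summed level of the list was 7946, 2011 and 4089 CPM in the control and 4542, 6261 and 4617 CPM in the ALP libraries, so that the ALP values lay within the range of the controls. Restricted to CLDN5 nuclei, the control mean was 7444 ± 1026 CPM and the ALP mean 8820 ± 2086 CPM (SD, n = 3 each). Transcription factors (10 tested) had a median log2 fold change of 0.16, TGF-β and BMP genes (6 tested) -0.03, transporters (7 tested) -0.09, tight junction genes (3 tested) -0.04, Wnt and barrier genes (7 tested) -0.18, capillary genes (3 tested) -0.10, transcytosis genes (3 tested) -0.18, basement membrane genes (7 tested) -0.28, inflammation genes (5 tested) -0.56, VEGF and angiopoietin genes (3 tested) 0.11 and arterial genes (3 tested) 0.47. In each of these lists 0 genes had an unadjusted p under 0.05. Of the 102 listed genes with a UMI that were too low to be tested, 3 lay higher and 3 lower in all ALP libraries, beside 1.55% and 6.34% of all such features. VCAM1, the adhesion molecule that binds leukocytes, stood at 17.2, 31.3 and 3.79 CPM in the controls, against 35.1, 63.0 and 39.5 CPM with ALP, on 1 to 8 UMIs per library. GATA2, a transcription factor of endothelial and blood cells, had 22, 4 and 11 UMIs in the controls, against 0, 0 and 0 UMIs with ALP. The capillary gene SPOCK2 (4 to 27 UMIs per library) and the identity gene ECSCR (1 to 6 UMIs) were the others on the higher side, and ABCC5 and ICAM1, with 8 and 5 UMIs in all, the others on the lower side. No test was made of these genes. Fewer than 3 genes were tested of the Notch, venous, vascular tone and stress lists, with 0 called. The summed stress and immediate early list, led by DUSP1, ran from 236.8 CPM in ALP 3 to 883 CPM in Control 1, and the vascular tone list, led by RAMP2, from 338 CPM in Control 2 to 1101 CPM in Control 1.

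Single genes show the width of the spread between libraries. The log2 fold change of SLC2A1 between ALP and control TSs was -0.16 ± 0.68 (SE), that of SLCO1A2 0.25 ± 0.64 (SE) and that of B2M 0.19 ± 0.51 (SE). CXCL12, a chemokine of vessels, stood at 825, 125 and 140 CPM in the control and 123, 225 and 197 CPM in the ALP libraries, where 1 control library was high and the others overlapped with the ALP libraries (log2 fold change -1.01 ± 0.68, SE). RGCC, a capillary gene, showed 496, 68.9 and 170 CPM in the control and 70.1, 63.0 and 19.7 CPM in the ALP libraries and did not pass the filter on low counts. Without Control 1 the median log2 fold change of the identity list was 0.73, that of transporters 0.88, that of TGF-β and BMP genes 0.70, that of transcription factors 0.69, that of inflammation genes 0.50 and that of arterial genes 1.45, with 0 genes called. The medians of basement membrane (0.24), Wnt and barrier (0.38), capillary (0.56), transcytosis (0.16), tight junction (0.28) and VEGF and angiopoietin genes (-0.21) also changed sign without it, as did those of transporters, TGF-β and BMP genes and inflammation genes, so that no direction can be read from these lists.

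**Figure D4:**
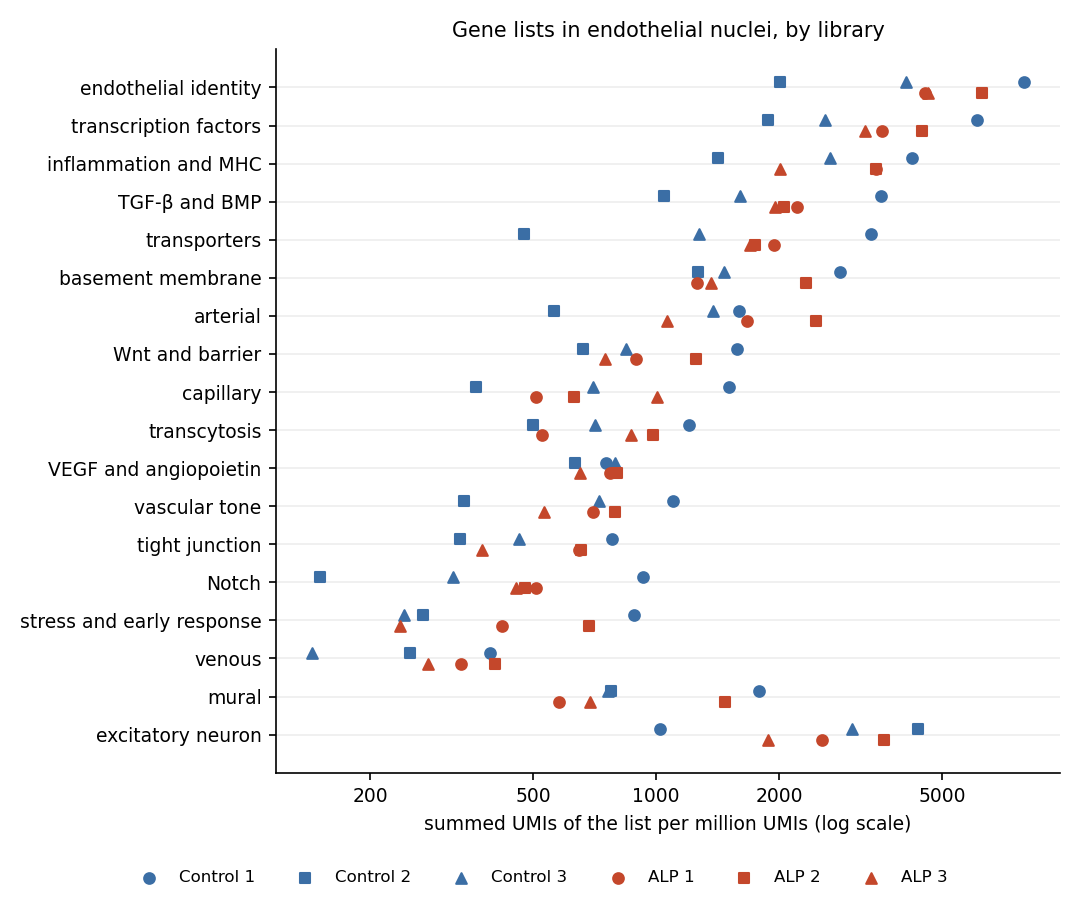
Summed CPM of 18 gene lists in the endothelial nuclei (x axis, log scale), 1 point per library with its own symbol. Control 1 is highest and Control 2 lowest in the identity, transporter, transcription factor, TGF-β and BMP and inflammation lists, with the ALP libraries between them, while Control 2 is highest in the excitatory neuron list with 4379.

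The genes nearest to the threshold, without a call, were taken as the 8 with the smallest p in each direction whose groups did not overlap. Their values are CPM over the tested genes with TMM scaling, and each has an adjusted p of 0.999 in edgeR. NTM, a neuronal adhesion protein of the IgLON family, stood at 68.3, 63.7 and 42.3 CPM in the controls, against 244.6, 112 and 395 CPM with ALP, on 7 to 24 UMIs per library (log2 fold change 1.99 ± 0.53, SE). ZBTB16, a zinc finger transcription factor, stood at 364, 209.5 and 397 CPM in the controls, against 48.9, 123 and 113 CPM with ALP, on 2 to 128 UMIs (log2 fold change -1.72 ± 0.49, SE). RAB28, a small GTPase, stood at 299, 346 and 323 CPM in the controls, against 73.4, 134 and 141 CPM with ALP (log2 fold change -1.44 ± 0.44, SE). KIF13B, a kinesin motor, stood at 102, 100.2 and 84.7 CPM in the controls, against 171, 246 and 226 CPM with ALP (log2 fold change 1.17 ± 0.41, SE).

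The others on the higher side were CNST, PCSK1N, CKB, CCK, GABRA4 and DDX1, with log2 fold changes of 1.19 to 1.69. On the lower side they were TENM3, GABPB1, GRK3, GPC5, ALCAM and ZNF461, with -1.18 to -2.27. The lowest of these, GRK3, had 0, 4 and 0 UMIs in the ALP libraries, so that its fitted value rests on few UMIs. Without ALP 2 no ALP UMI is left, and the -7.04 fitted then depends on the prior count. Single libraries weighed on GPC5, with a log2 fold change of -1.41 that was -3.00 without ALP 2, and on ALCAM, with -1.31 that was -0.79 without Control 3. Among them CCK is a neuropeptide, GABRA4 a subunit of GABA receptors and TENM3 an adhesion protein of neurons. The excitatory neuron list stood at 1023, 4379 and 3010 CPM in the control and 2543, 3607 and 1874 CPM in the ALP libraries and overlapped, led by SYT1 and with 6 of 6 genes seen, and its part in these values was not tested. In CLDN5 nuclei alone the groups stayed apart in the same direction in 2 of the 8 higher genes (KIF13B and DDX1) and in 2 of the 8 lower genes (GABPB1 and GPC5). Of all 2583 genes, 4.26% lay higher and 2.83% lower without overlap in those nuclei. In the nuclei with 0 endothelial marker UMIs they were apart in the same direction for PCSK1N, CKB and CCK among the higher and RAB28 and ALCAM among the lower genes, where 8.59% of the 2583 genes lay higher and 19.6% lower without overlap.

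**Figure D5:**
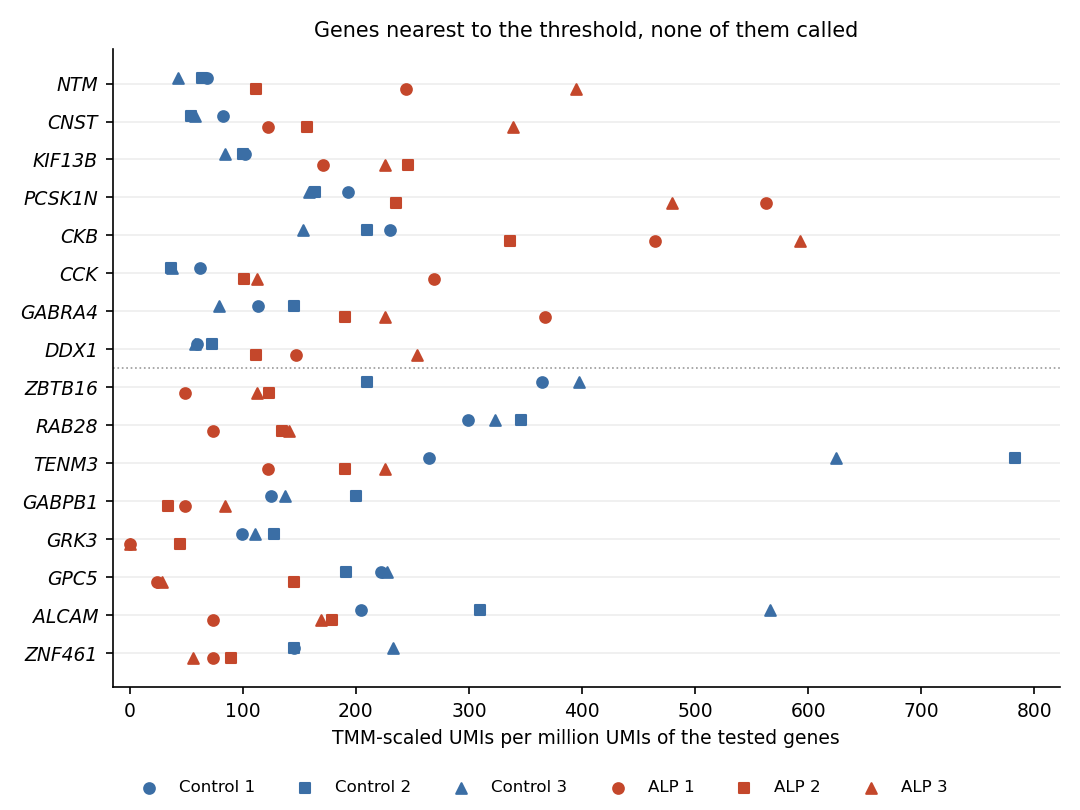
Level in each library of the 16 genes with the smallest p whose groups did not overlap (8 higher in ALP TSs above the dotted line, 8 lower below it), in TMM-scaled CPM over the tested genes. The groups separate by the choice of genes, and the adjusted p is 0.999 in each.

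Whether a difference between ALP and control TSs was particular to endothelial nuclei was tested by the interaction of cell kind and group, with the nuclei of 0 endothelial marker UMIs from the same libraries as the other kind. Of 2583 genes tested, 0 were called by edgeR (0%), and 38 had an unadjusted p under 0.05. For NTM the difference between the log2 fold changes was 1.75 (adjusted p = 1 in edgeR). Without Control 1, ABCB4 and ADGRF5 were called, with a log2 fold change higher in endothelial than in other nuclei by 2.01 (adjusted p = 0.0346, edgeR) and 2.57 (adjusted p = 0.0456, edgeR). With all 6 libraries these differences were 1.20 and 1.40 with an adjusted p of 1 in edgeR. Both genes stood highest in Control 1, with 1762 CPM for ABCB4 and 737 CPM for ADGRF5. These 2 genes were singled out after their values were seen.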

How the data were processed

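The authors deposited raw counts, UMIs per feature and nucleus barcode, for 6 hippocampal snRNA-seq libraries. Per the labels the counts came from Cell Ranger 3.1.0, while the file headers name 6.1.2. Reference and annotation were from TreeshrewDB, and build and use of strand are not given in the sources used here, so no coordinates or sequences are printed and antisense features are uncertain. All barcodes had at least 235 genes. Depth was 19182981 to 35898940 UMIs per library.

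UMIs were summed per library, since nuclei of 1 animal are not replicates, and tested with edgeR 4.0.16 (R 4.3.3, quasi-likelihood, TMM, minimum count 10, Benjamini-Hochberg) or DESeq2 1.42.0. The study's mixed model over nuclei with sex as covariate was not used, as sex is not given per library. SEs are the log2 fold change divided by the root of the quasi-likelihood F. Shares were compared by two-sided exact permutation over 20 arrangements. Enrichment used a prior of 10 CPM, at least 50 UMIs and 6 of 6 libraries, and the 20 largest median ratios were named, beside up to 4 genes of highest CPM per list. In addition, further listed genes were named after their values were seen. Thinning was computed exactly. Members and 27 gene lists were chosen with earlier results of these data known. The test was tried on simulated data. Alternatives are given in the closing section. Nothing says that libraries were prepared separately beyond 1 per animal.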

Additional observations from a re-analysis of the deposited data

How the results depend on the processing

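The lower share and lower median depth of endothelial nuclei in ALP TSs kept their direction under every alternative tried, with differences in share of -0.370 (without Control 1) to -0.872 percentage points when 1 library was left out. The groups overlapped in share with every nucleus thinned to 500 UMIs (difference -0.289, exact permutation p = 0.3). Without the filter on low counts 7 of 26576 genes were called in endothelial nuclei. HBG and HBQ1, haemoglobin genes, had 785 and 500 of their UMIs in 1 nucleus of Control 3, and LINC-HS3ST4-5 27 in 1 nucleus of ALP 2. The interaction gave 1 call without the filter (IQCJ-SCHIP1-AS-9) and 0 to 2 with each library left out. The ratio of endothelial to mural nuclei, ALP minus control, was -0.524 instead of 0.584 with at least 5 UMIs of each marker set, in 5 libraries, and -1.12 to 1.88 with 1 library left out. With at most 2500 genes and 5% mitochondrial UMIs per nucleus it gave no value, as a library had no mural nucleus left. The difference in arterial nuclei was 4.79 percentage points, -8.73 without thinning and -1.68 to 8.15 with 1 library left out. The venous one was 5.74, -5.95 without thinning and 1.99 to 11.3. Against mural nuclei the log2 ratio was -0.31 for RGS5 and -0.53 for EBF1. All other counts of called genes were 0, also with upper-quartile scaling, at most 2500 genes and 5% mitochondrial UMIs (531 tested), a CLDN5 UMI required (753 tested) or no UMI of a mural or fibroblast marker (1495 tested). Replicate numbers did not pair the samples (r = 0.0057, -0.0127 and 0.0099), and the replicate block gave 0 calls. Y-linked transcripts, as CPM over all nuclei of a library, stood at 61.0, 75.4 and 0.557 in Control 1, 2 and 3. They stood at 0.249, 75.9 and 0.0521 CPM in ALP 1, 2 and 3. The 3 libraries with high levels, Control 1, Control 2 and ALP 2, were thus spread unevenly over the groups. A term for these 3 libraries gave 0 calls between ALP and control TSs. Shares and depth were not compared with such a term. The CLDN5 requirement, the thinning of the share to 500 UMIs and the lists without ARL15 and TSHZ2 were added after the data were seen.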

Other observations

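Nuclei with at least 3 endothelial marker UMIs and a UMI of an excluding marker numbered 253. NEUROD6 was present in 110, MOG in 109, AQP4 in 86, PTPRC in 48, PDGFRA in 25 and GAD1 in 3 of them. Their median depth was 4781, 10546 and 20914.5 UMIs in Control 1, 2 and 3 and 7495, 6183 and 5931 UMIs in ALP 1, 2 and 3, above that of the endothelial nuclei in each library.

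Haemoglobin RNA was concentrated in few endothelial nuclei. HBG had 4, 0 and 786 UMIs in the controls, against 2, 0 and 1 UMIs with ALP, in 8 nuclei, and 785 of them were in 1 nucleus of Control 3. HBQ1 had 6, 0 and 501 UMIs and 0, 0 and 2, also in 8 nuclei. In the nuclei with 0 endothelial marker UMIs HBG stood at 1.99 to 31.9 CPM, highest in ALP 3. NDUFB8li1 had 18, 16 and 66 UMIs in the controls, against 0, 3 and 0 UMIs with ALP, in 34 nuclei with 32 of the UMIs in 1 of them, and in the other nuclei it stood at 106, 83.7 and 141 CPM against 50.4, 53.9 and 37.6 CPM, where the groups did not overlap either. It was called in endothelial nuclei only without the filter on low counts, with an adjusted p of 0.0306 in edgeR.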
